A study of Mus musculus with 14 samples.

Results

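The osteoclast genes described here are 9 genes taken by symbol, *Tnfrsf11a*, *Calcr*, *Oscar*, *Nfatc1*, *Dcstamp*, *Ocstamp*, *Atp6v0d2*, *Ctsk* and *Acp5*, out of 55401 genes counted in each sample. Their read counts were taken without regard to strand from 14 RNAseq samples of marrow plugs from the distal tibia of male mice, a site where the marrow is rich in adipocytes. Each sample pooled the plugs of 2 mice, 24 weeks of age, of the strain C57BL6/SJL. The 4 groups were BMAd-Pnpla2+/+ mice fed ad libitum (AL, n = 4), BMAd-Pnpla2+/+ mice under caloric restriction (CR, n = 4), BMAd-Pnpla2-/- mice fed AL (n = 3) and BMAd-Pnpla2-/- mice under CR (n = 3), with CR a 30% restriction of food for 6 weeks. Controls and knockouts alike carried Osterix-FLPo and the FLPo-activated Adipoq-Cre, called FAC, so the genotypes differed by their floxed *Pnpla2* alleles. The recombinase acts in bone marrow adipocytes (BMAds) and in a small subset of stromal cells, and none of it is driven by an osteoclast promoter. *Pnpla2* encodes adipose triglyceride lipase (ATGL), which takes the first step of triglyceride breakdown. The comparisons ask whether CR, loss of the lipase in BMAds, or both together changed the osteoclast genes of the marrow.

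Osteoclasts are the multinucleated cells that resorb bone. They arise from the monocyte and macrophage lineage when precursors receive macrophage colony-stimulating factor (*Csf1*) and RANK ligand (*Tnfsf11*), the latter through its receptor RANK, encoded by *Tnfrsf11a*. Osteoprotegerin (*Tnfrsf11b*) is a soluble decoy that binds RANK ligand. RANK signalling, with co-stimulation through receptors such as OSCAR, raises the transcription factor NFATc1, which drives the genes of the mature cell. Among these are DC-STAMP and OC-STAMP, membrane proteins needed for cell fusion, the d2 subunit of the proton pump that acidifies the resorption pit (*Atp6v0d2*), the collagen-degrading protease cathepsin K (*Ctsk*), tartrate-resistant acid phosphatase (*Acp5*), and the receptor through which calcitonin halts resorption (*Calcr*).

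In the mm10 build, the resorption enzymes lie at chr3:95499256-95509362 on the plus strand (*Ctsk*, merged exons of 1512 bases) and at chr9:22126727-22135711 on the minus strand (*Acp5*, 2030 bases). The receptors lie at chr1:105780718-105847981, plus strand (*Tnfrsf11a*, 5985 bases), chr6:3685680-3764714, minus strand (*Calcr*, 3912 bases), and chr7:3609813-3616157, minus strand (*Oscar*, 1847 bases). The fusion genes lie at chr15:39745930-39760938, plus strand (*Dcstamp*, 2664 bases), and chr2:165393760-165400405, minus strand (*Ocstamp*, 3657 bases). *Atp6v0d2* lies at chr4:19876841-19922605 on the minus strand (2716 bases). An exon of *Acp5* shares 137 bases with an exon of an antisense transcript, 6530413G14Rik, and reads over such bases are given to neither gene when strand is ignored. No other of the 9 genes shares exon bases with another gene.

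RefSeq promoters (GRCm38.p6) were at hand for 5 of the 9 genes, and the stretch of 250 bases before the start site is shown for 4 whose counts were higher under CR (below), so that the sequences before genes that moved together can be read side by side. Of the 3 *Acp5* and 2 *Calcr* start sites listed, the most downstream *Acp5* site and the most upstream *Calcr* site are shown. Capitals mark matches, on either strand, to the core letters bound by NFAT factors (GGAAA), by PU.1 (GAGGAA) and by MITF (CATGTG), the last 2 being factors of the osteoclast lineage. An AP-1 sequence (TGANTCA) was searched as well and matched none of the promoters at hand.
Ctsk, chr3:95498960-95499209, plus strand: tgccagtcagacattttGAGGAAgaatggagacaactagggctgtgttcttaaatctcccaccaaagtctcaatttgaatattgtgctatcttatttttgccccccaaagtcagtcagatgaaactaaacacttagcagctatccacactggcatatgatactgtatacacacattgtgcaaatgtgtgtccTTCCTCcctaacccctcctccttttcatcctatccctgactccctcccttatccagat
Acp5, chr9:22130599-22130848, minus strand: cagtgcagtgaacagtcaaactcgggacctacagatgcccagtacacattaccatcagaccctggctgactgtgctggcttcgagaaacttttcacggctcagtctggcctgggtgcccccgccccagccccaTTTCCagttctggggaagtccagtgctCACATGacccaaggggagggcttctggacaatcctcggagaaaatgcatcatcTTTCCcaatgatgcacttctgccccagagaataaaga
Oscar, chr7:3616158-3616407, minus strand: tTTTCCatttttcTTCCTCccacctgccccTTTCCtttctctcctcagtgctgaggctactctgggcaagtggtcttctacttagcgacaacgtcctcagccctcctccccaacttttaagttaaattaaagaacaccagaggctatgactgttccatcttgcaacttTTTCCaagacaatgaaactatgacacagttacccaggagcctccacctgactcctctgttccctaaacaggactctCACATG
Calcr, chr6:3764714-3764963, minus strand: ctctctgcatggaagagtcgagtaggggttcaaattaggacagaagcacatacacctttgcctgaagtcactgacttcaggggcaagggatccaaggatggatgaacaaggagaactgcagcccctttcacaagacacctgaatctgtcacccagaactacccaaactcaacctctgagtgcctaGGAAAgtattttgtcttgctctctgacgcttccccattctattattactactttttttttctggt

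The *Oscar* promoter held 3 NFAT core matches, 1 PU.1 match and 1 MITF match, the last beginning 6 bases before the start site. The *Acp5* promoter shown held 2 NFAT core matches, at 117 and 37 bases before the start, and an MITF match at 90. Each of its other promoters held 1 NFAT core match, at 41 or 167 bases, and no PU.1 or MITF match. For *Acp5* and *Calcr* alike, the promoter shown was the one with the most matches. The *Ctsk* promoter held 2 PU.1 matches, at 233 and 58 bases, and no NFAT core within these 250 bases. The *Calcr* promoter shown held 1 NFAT core match, at 65 bases, and its other promoter and that of *Tnfrsf11a* held none of these letters. These are short words. Among 32851 RefSeq promoters of the same length, 55.6% held the NFAT core, 23.3% the PU.1 core, 12.3% the MITF letters and 6.7% the AP-1 letters, and the NFAT and PU.1 cores can overlap.

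Sequencing gave 25282327 to 27475056 read pairs a sample, and of these 18898324 to 21665553 were assigned to a gene without regard to strand. *Pnpla2*, the targeted gene, was at 146 ± 21.4 CPM (SD, n = 3) in BMAd-Pnpla2-/- AL and 221 ± 44.8 (n = 3) in BMAd-Pnpla2-/- CR against 216 ± 57.6 (n = 4) and 828 ± 237 (n = 4) in the BMAd-Pnpla2+/+ groups. Its log2 fold change between genotypes was -0.57 fed AL (adjusted p = 0.9996) and -1.90 under CR (adjusted p = 0.0386), and the latter passed in 5 of 14 fits with 1 sample left out, and not without BMAd-Pnpla2+/+ CR replicate 2 (adjusted p = 0.0656). The 3 BMAd-Pnpla2-/- CR libraries differed in kind from the other 11. Reads on the first strand made up 50.1% to 50.5% of strand-assigned gene reads in them and 4.30% to 4.62% in the others, so library type and this group cannot be told apart. BMAd-Pnpla2+/+ CR replicate 2 stood apart in another way. Its level of every one of the 9 genes was the highest of the 14 samples, and it also held the highest summed CPM of 10 osteoblast and osteocyte genes (840 against 278 to 767 in the other 13), 7 chondrocyte genes (378 against 25.8 to 173), 8 adipocyte genes (4664 against 328 to 4475), 5 endothelial genes (1070 against 406 to 934) and 5 marrow stroma genes (8975 against 4148 to 8232). Nearly all of its chondrocyte sum came from *Comp* and *Col2a1*. The sample held the lowest summed CPM of 10 neutrophil genes (12943 against 14025 to 34357), 9 monocyte and dendritic cell genes (772 against 798 to 1240) and the erythroid genes (8508 against 9146 to 43444). Tests that rest on it are given with and without it.

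Levels were compared between genes as CPM (read counts scaled to library size) per kb of exon. On this scale *Acp5* stood at 53.0 ± 23.9 CPM (SD, n = 4) and *Ctsk* at 33.6 ± 24.9 in BMAd-Pnpla2+/+ AL, and their ranges overlapped. *Nfatc1*, at 20.1 ± 2.13, and *Atp6v0d2*, at 13.3 ± 5.11, came next. The other 5 genes were far lower, with *Tnfrsf11a* at 0.824 ± 0.133, *Oscar* at 0.756 ± 0.625, *Dcstamp* at 0.386 ± 0.174 and *Ocstamp* at 0.383 ± 0.261, where the range of *Tnfrsf11a* lay above those of *Dcstamp* and *Ocstamp*, and *Oscar* overlapped all 3. *Calcr* was the lowest, at 0.0458 ± 0.0582. The order was much the same in the other groups, with *Calcr* last and *Atp6v0d2* below *Acp5*, *Ctsk* and *Nfatc1* in each. In BMAd-Pnpla2-/- AL, *Nfatc1* (21.02 ± 0.787 per kb, n = 3) was above *Ctsk* (18.03 ± 6.65) within the spread of *Ctsk*, and in BMAd-Pnpla2-/- CR *Ctsk* (83.6 ± 9.97) was first, its range overlapping that of *Acp5* (73.3 ± 4.07). The place of *Acp5* depends on the unstranded count, which was 8688 in these samples against 12501 for its strands summed, whereas that of *Ctsk* was 7362 either way.

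**Figure D1:**
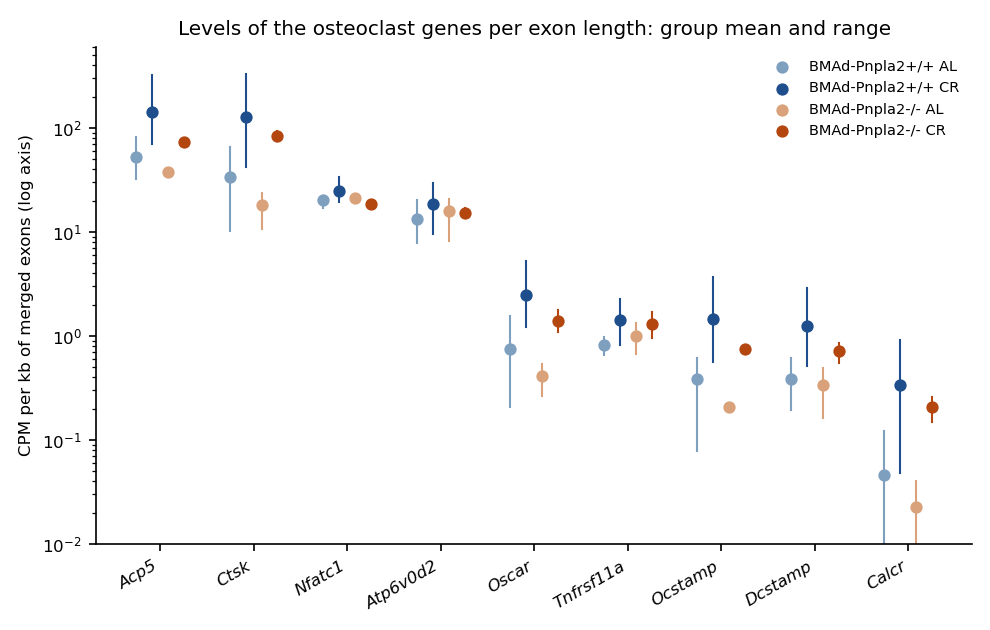
Levels of the 9 osteoclast genes as CPM per kb of merged exons on a log axis, by group. Points are group means and lines run from the lowest to the highest sample, with lines that reach 0 (*Calcr* AL) cut at the axis. *Acp5*, *Ctsk*, *Nfatc1* and *Atp6v0d2* were above the other 5 genes in each group.

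Under CR all 9 genes had averaged log2 fold changes above 0, and 6 of them passed the test. Averaged over the genotypes, *Calcr*, *Ctsk*, *Ocstamp*, *Oscar*, *Dcstamp* and *Acp5* were 2.27-fold to 7.89-fold higher under CR, with log2 fold changes of 2.98, 2.07, 1.87, 1.73, 1.38 and 1.18 and adjusted p-values of 0.00783 to 0.0206 by edgeR's quasi-likelihood test. *Tnfrsf11a* (log2 fold change 0.58 ± 0.22 SE, adjusted p = 0.0571), *Atp6v0d2* (0.20 ± 0.27, adjusted p = 0.592) and *Nfatc1* (0.07 ± 0.11, adjusted p = 0.666) did not pass. The call was an adjusted p under 0.05 over 17671 genes tested, a threshold 34.7% of all tested genes passed in this comparison, 19.6% of them upward. All 6 also passed the study's further criterion of a log2 fold change over 1, as 5.98% of all tested genes did upward. Without BMAd-Pnpla2+/+ CR replicate 2 the log2 fold changes were 2.37 for *Calcr*, 1.52 for *Ctsk*, 1.39 for *Oscar*, 1.35 for *Ocstamp*, 0.96 for *Dcstamp* and 0.78 for *Acp5* (adjusted p of 0.00688 to 0.0241), so that *Dcstamp* and *Acp5* then missed that criterion. The median log2 fold change of the 9 genes was 1.38, beside 0.02 over all tested genes. When any 1 of the 14 samples was left out, the 6 calls held, except that of *Dcstamp* without BMAd-Pnpla2-/- AL replicate 1 (adjusted p = 0.0559). In bulk RNA, more osteoclasts and more RNA of these genes per osteoclast cannot be told apart. The average includes BMAd-Pnpla2-/- CR against AL, where diet and library type cannot be told apart either.

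Within BMAd-Pnpla2+/+ mice, the same 6 genes passed, with log2 fold changes of 1.42 to 2.86 and adjusted p-values of 0.0341 to 0.0467, where 26.0% of all tested genes passed, 15.1% upward and 7.33% upward with a log2 fold change over 1. These calls rested on BMAd-Pnpla2+/+ CR replicate 2. Without it, none of the 9 passed, the log2 fold change of *Ctsk* fell from 1.93 to 0.83 (adjusted p = 0.234) and that of *Acp5* from 1.42 to 0.62 (adjusted p = 0.118), and all 9 stayed above 0. Calls over all genes also went from 4602 to 2694 of 17568 (15.3%). None passed either without AL replicate 3 or without AL replicate 4. Within BMAd-Pnpla2-/- mice none of the 9 passed, where 11.6% of all tested genes did, 6.04% upward and 2.62% upward with a log2 fold change over 1, and 4 of the 9 had an unadjusted p under 0.05, with *Ctsk* nearest the threshold (2.21 ± 0.77, adjusted p = 0.0765). DESeq2 called *Ctsk* there (adjusted p = 0.0425). A fit of the BMAd-Pnpla2-/- samples alone called 5, *Calcr*, *Oscar*, *Ocstamp*, *Ctsk* and *Acp5* (adjusted p of 0.00403 to 0.0214), and the model without BMAd-Pnpla2+/+ CR replicate 2 called *Ocstamp*, *Ctsk* and *Acp5*. Over all genes these fits called 3069 of 17796 (DESeq2), 2672 of 16576 and 2349 of 17568. In each of them the diet groups of BMAd-Pnpla2-/- mice also differed in library type.

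**Figure D2:**
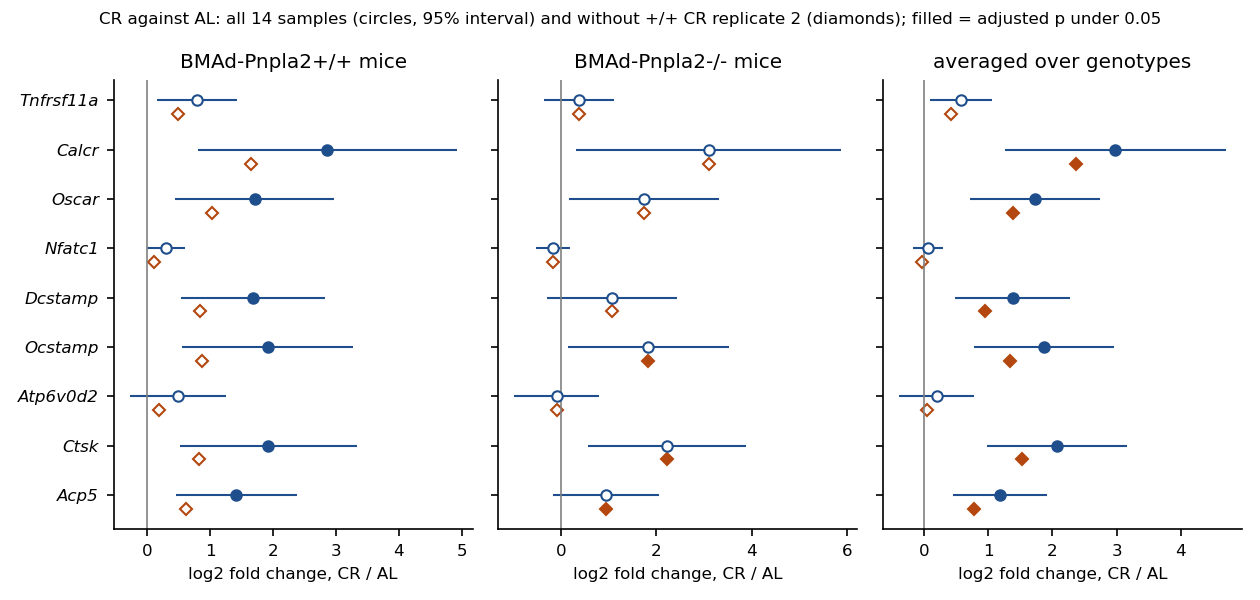
Log2 fold changes of the 9 genes, CR against AL, in BMAd-Pnpla2+/+ mice, BMAd-Pnpla2-/- mice and averaged over the genotypes. Circles with 95% intervals are from all 14 samples and diamonds are without BMAd-Pnpla2+/+ CR replicate 2, filled where the adjusted p was under 0.05. The 6 filled circles on the left all have open diamonds under them, whereas the same 6 genes have filled diamonds on the right.

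*Tnfrsf11a*, the receptor of RANK ligand, was at 4.92, 5.86, 3.91 and 5.02 CPM in BMAd-Pnpla2+/+ AL and at 4.88, 13.4, 8.18 and 7.60 in BMAd-Pnpla2+/+ CR. BMAd-Pnpla2-/- mice had 3.97, 7.90 and 6.08 with AL and at 7.43, 10.2 and 5.74 with CR. Diet groups overlapped in each genotype, and the log2 fold change was 0.79 ± 0.29 (adjusted p = 0.0605) in BMAd-Pnpla2+/+ and 0.38 ± 0.34 (adjusted p = 0.496) in BMAd-Pnpla2-/- mice.

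*Calcr*, the calcitonin receptor, is a gene of mature osteoclasts and was nearly silent in AL marrow. Its counts were 5, 9, 0 and 0 in BMAd-Pnpla2+/+ AL and 4, 78, 15 and 16 in BMAd-Pnpla2+/+ CR. In BMAd-Pnpla2-/- they were 0, 3 and 2 with AL and 19, 11 and 17 with CR. The BMAd-Pnpla2+/+ groups overlapped through CR replicate 1, and the BMAd-Pnpla2-/- groups did not overlap. With counts pooled, the level per library was 7.92 times as high under CR in BMAd-Pnpla2+/+ mice (113 against 14 counts, exact 95% interval 4.53 to 14.9) and 9.54 times as high in BMAd-Pnpla2-/- mice (47 against 5 counts, 3.81 to 30.7), intervals that cover counting error and leave out the spread between samples. The fitted log2 fold changes were 2.86 ± 0.95 (adjusted p = 0.0420) and 3.09 ± 1.29 (adjusted p = 0.131), and a fitted fold of so few counts depends on the prior count of the model.

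*Oscar*, a co-stimulatory receptor of osteoclasts, was at 1.69, 2.90, 0.618 and 0.379 CPM in BMAd-Pnpla2+/+ AL and at 2.23, 9.71, 2.27 and 4.06 in BMAd-Pnpla2+/+ CR. AL replicate 2 lay above CR replicates 1 and 3, and the log2 fold change was 1.71 ± 0.59 (adjusted p = 0.0467). BMAd-Pnpla2-/- mice had 0.489, 1.0 and 0.793 with AL and at 2.37, 3.31 and 2.01 with CR, without overlap (1.74 ± 0.73, adjusted p = 0.133).

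*Nfatc1*, the transcription factor on which osteoclast differentiation depends, had the smallest averaged log2 fold change of the 9, with 2405 to 5504 counts per sample. It was at 165, 128, 151 and 156 CPM in BMAd-Pnpla2+/+ AL and at 171, 251, 146 and 169 in BMAd-Pnpla2+/+ CR (log2 fold change 0.30 ± 0.14, adjusted p = 0.131). In BMAd-Pnpla2-/- it was at 154, 164 and 153 with AL and at 144, 126 and 150 with CR (log2 fold change -0.17 ± 0.16, adjusted p = 0.539). The difference between these responses, -0.46 ± 0.22, had an adjusted p of 0.4815. *Nfatc1* is also expressed outside osteoclasts, in lymphocytes among other cells.

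The fusion genes were low, and each was higher under CR on average. *Dcstamp* was at 0.917, 1.64, 0.515 and 1.04 CPM in BMAd-Pnpla2+/+ AL and at 1.80, 7.70, 1.38 and 2.37 in BMAd-Pnpla2+/+ CR (log2 fold change 1.69 ± 0.53, adjusted p = 0.0341). BMAd-Pnpla2-/- mice had 0.435, 1.32 and 0.952 with AL and at 2.00, 2.26 and 1.47 with CR (1.08 ± 0.63, adjusted p = 0.283). The BMAd-Pnpla2+/+ groups overlapped at AL replicate 2 and CR replicate 3, and those of BMAd-Pnpla2-/- did not. *Ocstamp* was at 2.22, 2.16, 0.927 and 0.284 CPM in BMAd-Pnpla2+/+ AL and at 2.04, 13.4, 2.31 and 3.32 in BMAd-Pnpla2+/+ CR (1.92 ± 0.63, adjusted p = 0.0403). In BMAd-Pnpla2-/- it was at 0.816, 0.684 and 0.793 with AL and at 2.90, 2.79 and 2.50 with CR, a tight and separate pair of groups (1.83 ± 0.78, adjusted p = 0.141).

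*Atp6v0d2*, which is also made by macrophages, did not pass in any comparison of the diets. It was at 21.1, 54.7, 33.1 and 35.8 CPM in BMAd-Pnpla2+/+ AL and at 25.9, 80.4, 49.0 and 48.2 in BMAd-Pnpla2+/+ CR (log2 fold change 0.49 ± 0.36, adjusted p = 0.314). BMAd-Pnpla2-/- mice had 22.1, 56.6 and 52.2 with AL and at 38.3, 38.4 and 46.3 with CR (-0.09 ± 0.41, adjusted p = 0.911). The groups overlapped in each genotype, and the 95% interval of the averaged log2 fold change was -0.38 to 0.79.

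The resorption enzymes were next. *Ctsk* was at 61.0, 99.3, 27.6 and 15.5 CPM in BMAd-Pnpla2+/+ AL and at 63.5, 501, 87.3 and 120 in BMAd-Pnpla2+/+ CR (log2 fold change 1.93 ± 0.65, adjusted p = 0.0454). AL replicate 2 lay above CR replicates 1 and 3, and the other 3 AL samples lay below every CR sample. In BMAd-Pnpla2-/- *Ctsk* was at 16.2, 35.7 and 29.9 with AL and at 143, 124 and 113 with CR, so that each CR sample was over the highest AL sample. *Acp5* was at 131, 165, 68.8 and 65.9 CPM in BMAd-Pnpla2+/+ AL and at 143, 657, 154 and 198 in BMAd-Pnpla2+/+ CR (1.42 ± 0.45, adjusted p = 0.0345). AL replicate 2 again lay inside the CR range. In BMAd-Pnpla2-/- it was at 77.6, 73.2 and 81.1 with AL and at 140, 155 and 151 with CR, without overlap (0.94 ± 0.51, adjusted p = 0.241).

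Read over samples, none of the 9 genes separated CR from AL in BMAd-Pnpla2+/+ mice, where 12.4% of all tested genes had every CR sample above every AL sample. In BMAd-Pnpla2-/- mice the 6 genes called on average each had every CR sample above every AL sample, as had 20.5% of all tested genes, and *Nfatc1* had every CR sample below, as had 17.4% of all tested genes. There the diet groups also differed in library type.

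**Figure D3:**
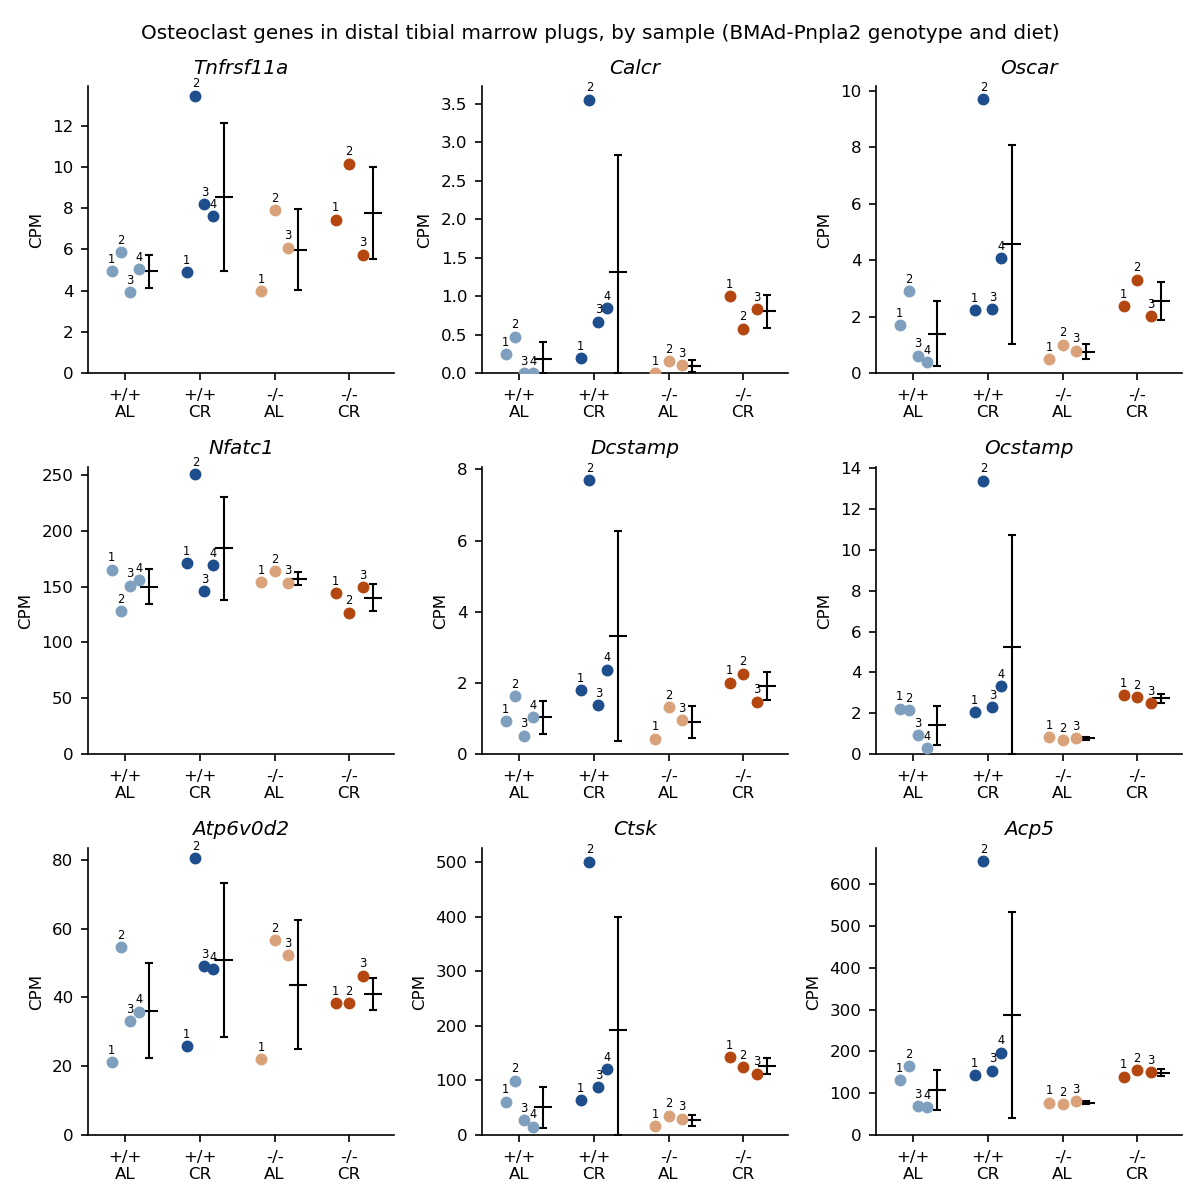
CPM of the 9 genes in each of the 14 samples, 1 panel a gene with its own axis from 0. Points are samples with their replicate number, and the bar beside each group is its mean with the SD (cut at 0). BMAd-Pnpla2+/+ CR replicate 2 is the highest point of every panel. In BMAd-Pnpla2-/- mice the CR points are above the AL points for *Calcr*, *Oscar*, *Dcstamp*, *Ocstamp*, *Ctsk* and *Acp5*, and below them for *Nfatc1*.

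BMAd-Pnpla2+/+ CR replicate 2 exceeded the mean of the other 3 samples of its group 6.27-fold for *Calcr*, 5.54-fold for *Ctsk*, 5.24-fold for *Ocstamp*, 4.16-fold for *Dcstamp*, 3.98-fold for *Acp5* and 3.40-fold for *Oscar*. The excess was smaller for *Atp6v0d2* (1.96-fold), *Tnfrsf11a* (1.95-fold) and *Nfatc1* (1.55-fold), which were the 3 genes without a call. In the same sample *Comp*, a cartilage matrix gene, was at 309 CPM against 18.03 to 166 in the other 13, *Col2a1*, the main cartilage collagen, at 67.6 against 2.51 to 25.9, and *Alpl*, alkaline phosphatase of osteoblasts, at 193 against 33.0 to 122. More genes of the osteoblast and osteocyte list were highest in this sample, *Sp7* at 42.7 CPM (at most 25.4 in the other 13) and *Dmp1* at 16.7 (at most 9.02). So were *Mepe* at 3.14 (at most 2.37) and, by a small margin, *Runx2* at 87.96 (at most 82.5). Others of that list lay within the range of the other samples, *Bglap* at 9.89 (2.76 to 18.8), *Bglap2* at 9.02 (2.85 to 15.3) and *Ibsp* at 427 (112 to 518). *Phex*, at 50.9, was below the 62.7 of BMAd-Pnpla2+/+ CR replicate 3. Other chondrocyte genes were near 0, *Acan* at 0.182 and *Col9a1* at 0.0456, and *Sost*, a gene of osteocytes, was at 0, as in 12 of the 14 samples. The part of other cell types in its osteoclast gene levels was not tested.

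Genes of several other cell types moved with the diet as well, where 34.7% of all tested genes passed on average, 3468 upward and 2661 downward. All 8 adipocyte genes rose under CR on average, with summed levels of 682 to 1727 CPM in BMAd-Pnpla2+/+ AL, 1891 to 4664 in BMAd-Pnpla2+/+ CR, 328 to 723 in BMAd-Pnpla2-/- AL and 1222 to 1976 in BMAd-Pnpla2-/- CR. Of 10 neutrophil genes 8 fell, and of 9 osteoblast and osteocyte genes tested 4 rose (*Alpl*, *Dmp1*, *Phex*, *Sp7*). Of 10 macrophage genes 3 rose, with summed levels of 1707 to 2256 and 2128 to 2954 CPM in BMAd-Pnpla2+/+ AL and CR and 1624 to 2604 and 1854 to 2974 in BMAd-Pnpla2-/- AL and CR, so the diet groups overlapped. Of 9 monocyte and dendritic cell genes 5 fell (*Ccr2*, *Cx3cr1*, *Itgax*, *Ly6c2*, *Siglech*) and 1 rose (*Flt3*). That list mixes genes of monocytes, the lineage from which osteoclasts arise, with genes of dendritic cells. Of 5 endothelial and 5 marrow stroma genes 4 each rose, and of 7 B cell genes 5 fell. Of 6 T and NK cell genes 2 rose and 1 fell, and of 3 chondrocyte genes tested 1 rose (*Comp*). None of 5 erythroid and none of 5 skeletal muscle genes tested passed. What part these shifts had in the levels of the osteoclast genes was not tested.

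Loss of *Pnpla2* from BMAds did not change any of the 9 genes detectably. With AL feeding none passed the test, none had an unadjusted p under 0.05, and 0.0% of all tested genes passed. The fitted log2 fold changes, BMAd-Pnpla2-/- against BMAd-Pnpla2+/+, ran from -0.94 (*Calcr*) to 0.28 (*Tnfrsf11a*), and 6 of 9 were below 0. The 95% intervals were wide, -2.43 to 0.63 for *Ctsk* and -1.51 to 0.56 for *Acp5*, and narrower for *Nfatc1*, -0.26 to 0.39. Under CR all 9 were below 0 and none passed, where 0.0113% of all tested genes did. That share was unstable, since 2 genes were called in all, 2112 without BMAd-Pnpla2+/+ CR replicate 4 and 1558 with DESeq2. The deposited matrix gave 2451, but it sets unstranded counts of BMAd-Pnpla2-/- CR against reverse-strand counts of BMAd-Pnpla2+/+ CR. *Nfatc1* had an unadjusted p of 0.0220 (log2 fold change -0.40 ± 0.15, adjusted p = 0.154) and *Acp5* one of 0.0702 (-0.95 ± 0.48, adjusted p = 0.254). That shared direction again rested on BMAd-Pnpla2+/+ CR replicate 2. Without it *Ctsk* went from -0.61 to 0.48, *Calcr* from -0.71 to 0.51, *Tnfrsf11a* from -0.14 to 0.17, *Ocstamp* from -0.95 to 0.10 and *Dcstamp* from -0.80 to 0.05. Averaged over the diets no gene of the 9 passed (0.017% of all tested genes did), the lowest adjusted p being 0.331 for *Acp5* (-0.72 ± 0.34).

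Nor did the response to CR differ detectably between the genotypes. For the difference between the log2 fold changes, BMAd-Pnpla2-/- minus BMAd-Pnpla2+/+, none of the 9 passed, the lowest adjusted p being 0.4815, none had an unadjusted p under 0.05, and 0.0% of all tested genes passed. *Ctsk* differed by 0.29 with a 95% interval of -1.81 to 2.39, *Acp5* by -0.47 (-1.92 to 0.97) and *Ocstamp* by -0.09 (-2.35 to 2.17), so that for *Ctsk* and *Ocstamp* differences of 2-fold in either direction lay within the interval. DESeq2 called none of the 9 in any of the comparisons between genotypes.

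*Acp5* was the gene whose value depended on how strand was handled. In the 11 stranded libraries its unstranded count (37546 in all) was 71.0% of its reverse-strand count (52864), whereas for the other 8 genes the share was 100.5% to 105%. The deposited matrix holds reverse-strand counts for those 11 samples and unstranded counts for the 3 BMAd-Pnpla2-/- CR samples. With that matrix, the log2 fold change of *Acp5* in BMAd-Pnpla2-/- mice was 0.42 in place of 0.94, and under CR it was -1.42 between genotypes (adjusted p = 0.0702) in place of -0.95. In the BMAd-Pnpla2-/- CR samples the unstranded count of *Acp5* was 8688 and the counts of its separate strands summed to 12501. The values of *Acp5* given here use the unstranded count in all 14 samples, where the same reads are left out of every group.

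Within groups the 6 genes called on average varied together from sample to sample, and *Tnfrsf11a*, not called, varied with some of them. After the mean of each group was subtracted from log2 CPM, Pearson's r over the 14 samples ran from 0.60 to 0.96 for the 15 pairs among them, with a median of 0.89. Without BMAd-Pnpla2+/+ CR replicate 2 the 15 pairs had r of 0.20 to 0.96 with a median of 0.85, and *Ctsk*, *Acp5*, *Ocstamp* and *Oscar* kept r of 0.85 to 0.96 among themselves. The weakest pair was *Dcstamp* with *Ocstamp* (0.60, and 0.20 without that sample). The 18 pairs between the 6 and the other 3 genes had r of 0.29 to 0.83 with a median of 0.55. Without that sample those pairs had r of -0.34 to 0.72 with a median of 0.25. Among them, *Tnfrsf11a* with *Dcstamp* had r of 0.83, and 0.72 without that sample. Pairs of genes in general were not set beside these. *Nfatc1* had positive r with all 8 other genes over 14 samples (0.19 to 0.56) and negative r with all 8 over 13 (-0.17 to -0.42), so that its relation to them rested on the sample left out. *Tnfrsf11a* and *Atp6v0d2* went together with r of 0.74 over 14 samples and 0.64 over 13. These values are descriptions over samples of unlike library types, the same type within each group, and the genes with few counts carry counting noise.

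**Figure D4:**
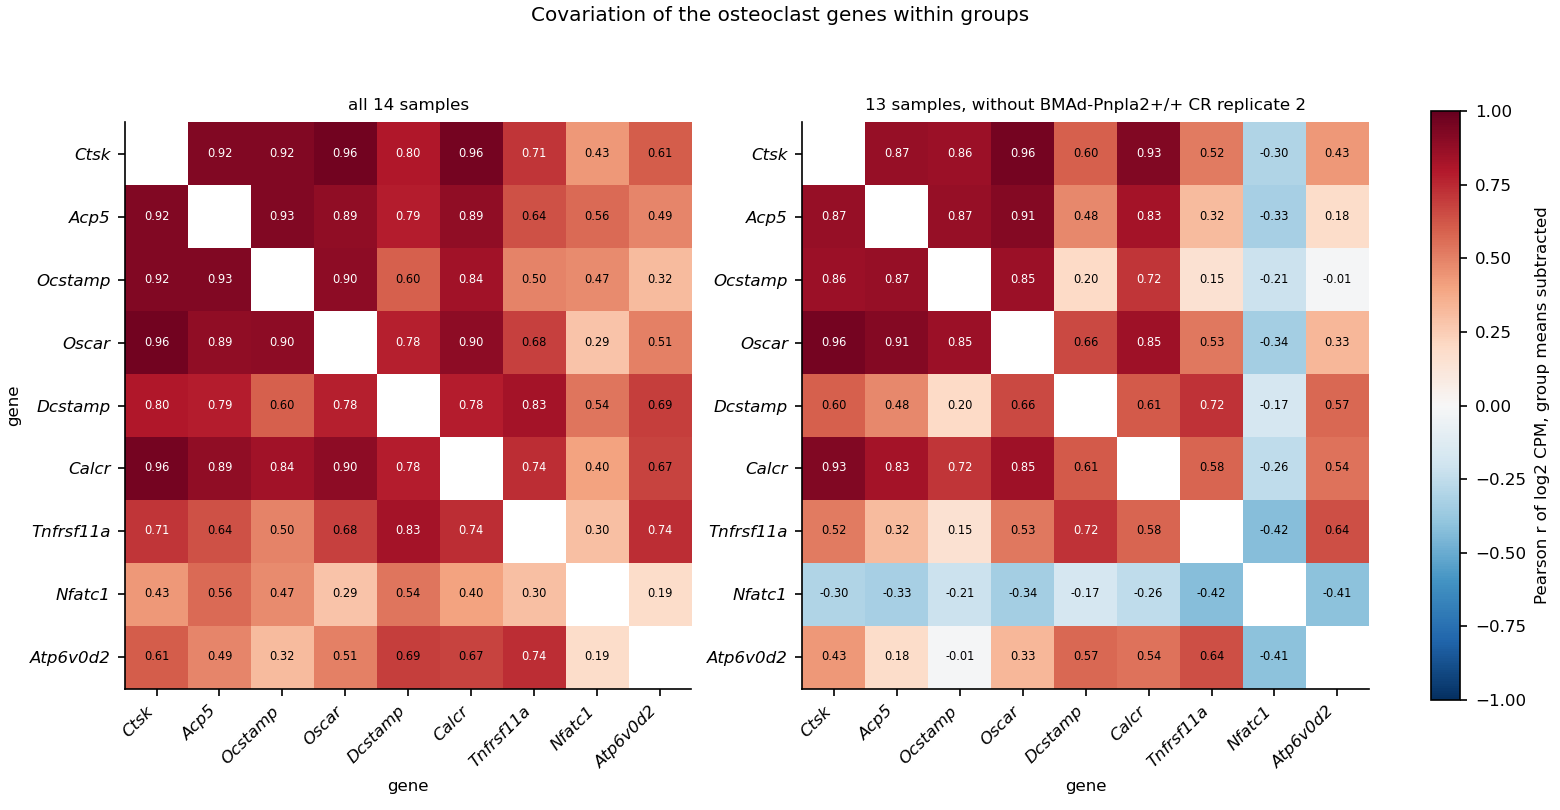
Pearson's r between log2 CPM of each pair of the 9 genes after group means were subtracted, over all 14 samples and over 13 without BMAd-Pnpla2+/+ CR replicate 2. Red is positive and blue negative. The block of *Ctsk*, *Acp5*, *Ocstamp*, *Oscar* and *Calcr* stays red in the right panel, and the row of *Nfatc1* turns from red to blue.

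The genes outside the 9 whose within-group pattern was most like the mean z-score of the 9 were *Cd276*, *Slc37a2*, *Mmp13*, *Siglec15*, *Serpine2*, *Gm20056*, *Slc9b2* and *Ckb*, with r of 0.91 to 0.95 over 14 samples, out of 13046 genes averaging 50 counts or more. Without BMAd-Pnpla2+/+ CR replicate 2, *Mmp13* (r = 0.91, 4th in the order) and *Cd276* (r = 0.88, 8th) stayed among the first 8, and *Ckb* fell to 51st (r = 0.73). *Mmp13* encodes collagenase 3 and went from 48.0 to 104 CPM with CR in BMAd-Pnpla2+/+ mice and from 29.2 to 113 in BMAd-Pnpla2-/- mice (group means). *Siglec15*, a receptor of osteoclasts, was at 2.29 and 5.28 CPM in the BMAd-Pnpla2+/+ groups, of which replicate 2 held 14.4, and at 1.69 and 2.54 in the BMAd-Pnpla2-/- groups.

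The signals that start osteoclast formation were then set beside the 9 genes. *Tnfsf11*, RANK ligand, had 28 to 146 counts per sample and a log2 fold change of 0.56 ± 0.28 with CR on average (adjusted p = 0.139). Its decoy *Tnfrsf11b* had 3 to 57 counts and rose by 1.37 ± 0.40 (adjusted p = 0.0167). The log2 ratio of *Tnfsf11* to *Tnfrsf11b* counts, with 0.5 added to each, was 3.46, 2.36, 1.87 and 3.64 in BMAd-Pnpla2+/+ AL and 1.47, 1.85, 0.67 and 1.36 in BMAd-Pnpla2+/+ CR. It was 2.13, 2.32 and 1.90 in BMAd-Pnpla2-/- AL and 1.33, 2.58 and 1.61 in BMAd-Pnpla2-/- CR. The ratio was thus lower in each BMAd-Pnpla2+/+ CR sample than in each AL sample, by 1.49 on average (difference -1.49, two-sided exact permutation p = 0.0286, the smallest 4 against 4 samples allow), which over the 4 pairs of groups compared was an adjusted p of 0.114. That ordering was narrow, since the ratio was 1.874 in AL replicate 3 (60 and 16 counts) and 1.855 in CR replicate 2 (146 and 40). In BMAd-Pnpla2-/- mice it differed by -0.28 (exact permutation p = 0.5, where 3 against 3 cannot go below 0.1). *Csf1* rose by 0.47 ± 0.13 on average (adjusted p = 0.0135) and its receptor *Csf1r*, which marks macrophages and osteoclast precursors, had a log2 fold change of 0.14 ± 0.15 (adjusted p = 0.491).

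Other genes of the osteoclast moved in both directions. Of 89 further genes in 9 lists, 87 were tested, and 19 passed upward and 25 downward with CR on average, where 34.7% of all tested genes passed and 19.6% did so upward. Their median was -0.03 on the log2 scale. In acid and chloride transport (23 genes, 2 up, 5 down, median -0.07), *Slc9b2*, a sodium/proton antiporter enriched in osteoclasts, rose by 2.29 ± 0.44 (adjusted p = 0.00210). In the same list *Tcirg1*, the a3 subunit of the pump (-0.09 ± 0.08, adjusted p = 0.430), and *Clcn7*, its chloride partner (0.13 ± 0.06, adjusted p = 0.117), did not pass, and *Atp6v1f* fell by 0.31, *Plekhm1* by 0.28 and *Atp6v0b* by 0.24, with *Atp6ap2* up by 0.22. In ITAM co-stimulation (9 genes, 0 up, 6 down, median -0.39), *Syk* fell by 0.64, *Plcg2* by 0.52 and *Btk* by 0.44, kinases and a phospholipase that many myeloid and B cells use.

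Among 11 transcription factors of osteoclast differentiation besides *Nfatc1*, 2 rose (*Prdm1* by 0.64 and *Fos* by 0.59) and 3 fell (*Spi1*, which encodes PU.1, by 0.59, *Nfkb2* by 0.38 and *Tfec* by 0.35). *Ppargc1b* passed in BMAd-Pnpla2+/+ mice (0.73, adjusted p = 0.0379) and not on average (0.47, adjusted p = 0.0606), and without BMAd-Pnpla2+/+ CR replicate 2 it did not pass there either (0.42, adjusted p = 0.129). Among 8 inhibitors of differentiation, *Id2* (0.46) and *Nfkbia* (0.16) rose and 4 fell, among them *Irf8* (by 0.55), *Pirb* (by 0.39) and *Bcl6* (by 0.39). Among 10 genes of attachment and the sealing zone 3 rose, *Spp1*, osteopontin (1.33), *Sh3pxd2a* (0.82) and *Itgav* (0.54), and 5 fell, led by *Fermt3* (by 0.62), *Pstpip1* (by 0.45) and *Tln1* (by 0.43). *Itgb3*, the beta 3 integrin shared with platelets, had a log2 fold change of -0.39 ± 0.17 (adjusted p = 0.0952).

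Of 8 matrix proteases and lysosomal genes *Ctsl* rose by 0.68 and *Ctsd* fell by 0.29, and *Mmp9*, which neutrophils also make, stood at 0.0053 ± 0.15 (adjusted p = 0.983). The calcitonin receptor partner *Ramp2* rose by 0.92 ± 0.20 (adjusted p = 0.00415), as did *Ramp3* of the 4 genes tested in that list. Of 7 coupling factors, by which osteoclasts signal to osteoblasts, *Slit3* (1.25 ± 0.23, adjusted p = 0.00178), *Lif* and *Bmp6* rose (*Bmp6* not without BMAd-Pnpla2+/+ CR replicate 2, adjusted p = 0.0740) and *Sema4d* fell. In the RANK ligand and M-CSF list 4 of 7 rose and none fell, with *Lgr4*, a further receptor of RANK ligand, at 1.14 ± 0.16 (adjusted p = 0.000337) and *Il34*, another ligand of the *Csf1* receptor, at 0.58 ± 0.19 (adjusted p = 0.0278).

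**Figure D5:**
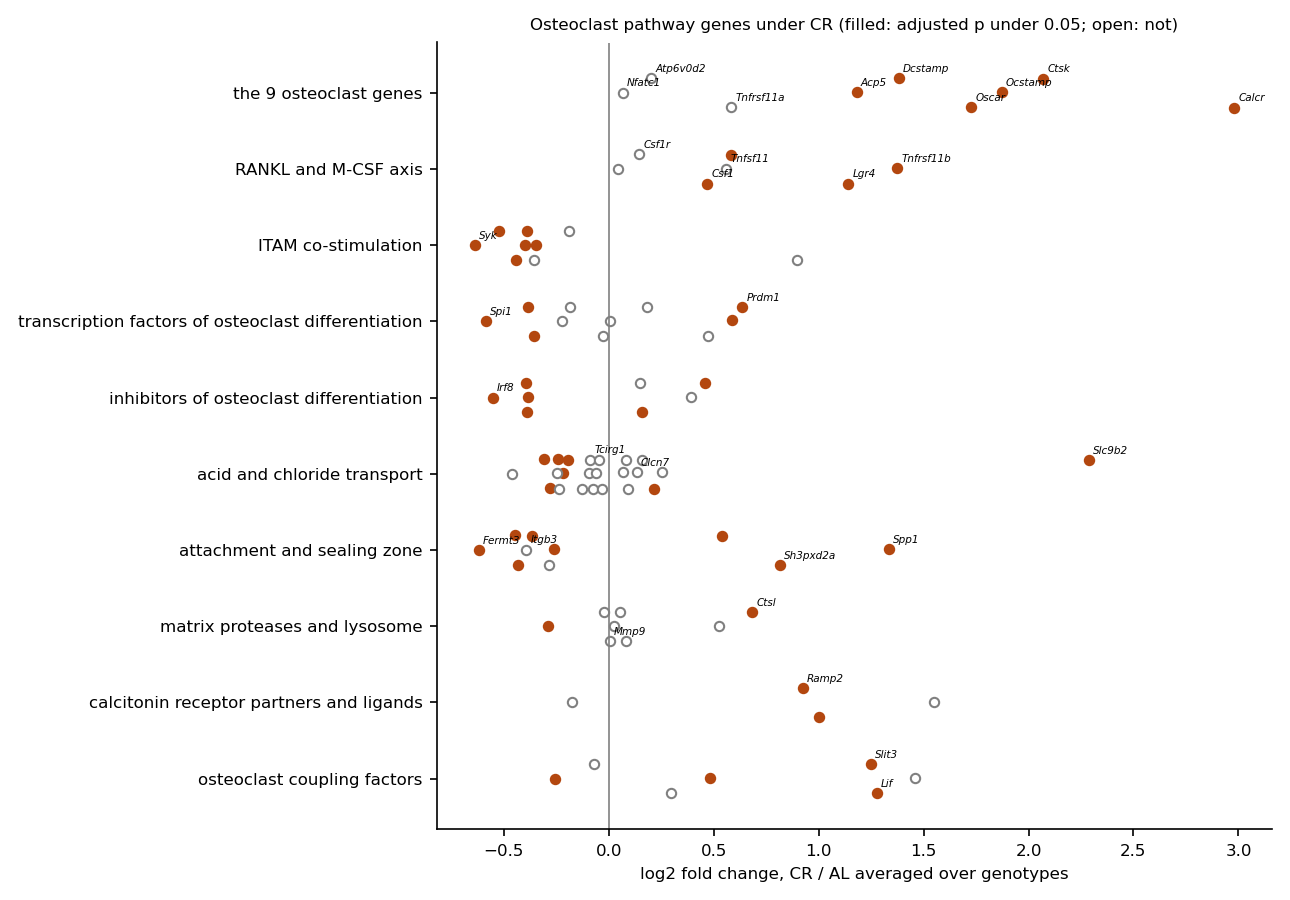
Log2 fold changes, CR against AL averaged over the genotypes, of the 9 genes and of the 87 tested genes in 9 lists, 1 point a gene, spread vertically for legibility. Filled points have an adjusted p under 0.05. The 9 genes run from 0.07 to 2.98, and *Slc9b2* at 2.29 is the point farthest to the right in the other lists.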

How the data were processed

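The authors aligned DNBSEQ paired-end reads of 100 bases to mm10 with STAR, and the submitters' processing notes also name FastQC 0.11.9 and DESeq2. They deposited STAR's gene counts per sample and a matrix of raw counts. The unstranded counts of each sample were used here, since the matrix holds reverse-strand counts for 11 samples and unstranded counts for 3. CPM were computed from these counts with TMM factors. Groups came from the sample labels, and samples of a group were pools of separate mice. The main test was edgeR 4.0.16 (R 4.3.3, limma 3.58.1), with a quasi-likelihood fit of the 4 groups, robust, on 17671 genes past filterByExpr, all 9 members among them, and Benjamini-Hochberg adjustment over all genes. SE and 95% intervals came from the same fit. DESeq2 1.42.0, other scalings, filters and sample sets were alternatives. Ratios were compared by exact permutation with scipy 1.17.1. Tested on simulated data for CR against AL in BMAd-Pnpla2+/+ mice, the fit recovered 82 of 100 genes changed by a log2 of 1 and 98 of 100 changed by 2, with 8 false calls among 17671 genes. For CR against AL in BMAd-Pnpla2-/- mice it recovered 77 and 93 of 100, with 12 false calls. The changed genes were drawn from those above a mean level that *Calcr*, *Oscar*, *Dcstamp* and *Ocstamp* lie below. Only 200 genes were changed, where the data gave 4602 and 2052 calls in these comparisons, and no sample far from its group was simulated. The recovery therefore does not speak for those genes or for such a sample. Nor does it speak for *Ctsk* and *Acp5*, each of which held one.

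The members and lists were chosen with earlier results of these data known. Named beside the 9 were *Pnpla2*, per list up to 3 rises and 3 falls, the largest among genes called with a mean of at least 50 counts, 8 genes of the RANK ligand axis and resorption named whatever their values, and the 8 genes most alike in pattern. *Lif* and *Ramp3*, below 50 counts, and the bone and cartilage genes of 1 sample were named after their values were seen. 2 list genes were not analysed here. Counting intervals cover counting error only.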

Additional observations from a re-analysis of the deposited data

Results flagged for a closer look

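Of 20 sets of 4 samples examined for a sample far from the others, 4 held one, where chance gives about 1 in 20. The sets reuse the same samples over genes that vary together, so the 4 are not independent. All 4 were BMAd-Pnpla2+/+ CR replicate 2, singled out because its gap to the nearest sample of its group, as a share of the range of the group, exceeded Dixon's 95% critical value. *Dcstamp* was at 7.70 CPM there (gap 0.843 of the range), *Ocstamp* at 13.4 CPM (0.887), *Ctsk* at 501 CPM (0.870) and *Acp5* at 657 CPM (0.893). The cause was not tested.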

How the results depend on the processing

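Averaged over the genotypes, the calls of 5 of the 6 called genes held under all 7 other settings, and *Acp5* lost its call with no filter on low counts (adjusted p = 0.0755). With 1 sample left out, 5 to 7 of the 9 genes were called. In BMAd-Pnpla2+/+ mice the 6 called became 1 with the reverse-strand counts of the 11 stranded libraries, 0 with the unstranded counts of those 11 (added after seeing the data), 0 with no filter and 0 with only the groups compared, a fit in which 8 of the 9 were tested, and 0 to 7 with 1 sample left out. In BMAd-Pnpla2-/- mice the 0 called became 1 with DESeq2, 5 with only the groups compared, 1 with the replicate block, and 0 to 3 with 1 sample left out. The causes were not tested. The replicate numbers share only a number. Of 19 same-numbered pairs, 7 deviated together with r over 0.1 (range -0.376 to 0.326), and 6 of 14 samples correlated best with their own number. With the replicate block, *Atp6v0d2* turned to 0.066 for CR in BMAd-Pnpla2-/- mice and to 0.056 between genotypes averaged over diets. The difference between the genotypes in the response of *Oscar* turned to -0.0031 with DESeq2 size factors and -0.031 with no filter. Log2 fold changes that changed sign with a sample left out, none of them called, ranged as follows. Between genotypes under CR, the ranges were *Tnfrsf11a* -0.38 to 0.17, *Calcr* -1.06 to 0.51, *Dcstamp* -1.05 to 0.049, *Ocstamp* -1.20 to 0.095 and *Ctsk* -0.89 to 0.48. Between genotypes averaged over diets, the ranges were *Tnfrsf11a* -0.070 to 0.23 and *Atp6v0d2* -0.15 to 0.13. Between genotypes fed AL, the ranges were *Calcr* -1.59 to 0.11, *Nfatc1* -0.0038 to 0.12 and *Dcstamp* -0.54 to 0.15. For the difference between the genotypes in the response to CR, the ranges were *Calcr* -0.82 to 1.45, *Oscar* -0.60 to 0.71, *Dcstamp* -0.997 to 0.232, *Ocstamp* -0.41 to 0.96, *Ctsk* -0.26 to 1.38 and *Acp5* -0.76 to 0.33. For CR averaged over the genotypes, the ranges were *Nfatc1* -0.026 to 0.12. For CR in BMAd-Pnpla2-/- mice, the ranges were *Atp6v0d2* -0.44 to 0.098. In BMAd-Pnpla2-/- mice 1067 of all tested genes rose and 985 fell, against 913 and 1267 with DESeq2 size factors and 1396 and 687 with total counts, under which the median over all genes went from 0.05 to 0.12. *Calcr*, at 0 to 9 counts in AL samples, is limited by depth.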
